A study of Saccharomyces cerevisiae with 16 samples.

Results

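Transcripts of 31 genes of the tricarboxylic acid (TCA) cycle, the glyoxylate shunt and the entry of pyruvate into them were followed through phosphate starvation of budding yeast, Saccharomyces cerevisiae, in a strain whose label gives PHM4 as deleted. The genes were taken by name from the 6648 named genes of the expression table, and all 31 were found. They comprise CIT1, CIT2, ACO1, IDH1 and IDH2, which carry carbon from acetyl-CoA to oxoglutarate (5 genes). The later steps from oxoglutarate to oxaloacetate add 11 genes. The rest are CIT3 with the 3 NADP isocitrate dehydrogenases, 4 genes of the glyoxylate shunt and of extramitochondrial malate dehydrogenase, 4 pyruvate dehydrogenase subunits, 2 pyruvate carboxylases and the citrate carrier CTP1. PHM4 is another name of VTC1, a subunit of the vacuolar polyphosphate polymerase. The strain is of BY4741 background and carries pho84pr-YFP, a fluorescent reporter under the promoter of a phosphate transporter gene. All 16 RNA-seq libraries are labelled as this strain: 1 at 0 min in high phosphate medium and 15 taken at intervals of 15 min, from 15 to 225 min, after washing and transfer to medium without phosphate. Each time is 1 library of what the labels describe as a single course, so there are no replicates. No strain with an undeleted PHM4 was analysed here, so nothing here compares the deletion with its parent. The carbon source of the media was not given in the sources used here.

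The TCA cycle oxidises acetyl-CoA in the mitochondrial matrix and also supplies oxoglutarate for glutamate and oxaloacetate for aspartate. Yeast growing on glucose keeps many of its genes low, and cells that respire raise them through the Hap2/Hap3/Hap4/Hap5 complex. In cells with poor respiration the retrograde pathway, in which Rtg2 controls the transcription factors Rtg1 and Rtg3, maintains CIT1, ACO1, IDH1 and IDH2 so that oxoglutarate is still made. CIT2 and DLD3 are the classic targets of that pathway. The glyoxylate shunt skips the decarboxylating steps by way of isocitrate lyase and malate synthase, and serves growth on acetate or fatty acids.

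Upstream sequence is shown for 4 genes of the first steps and for MDH1 of the later steps. Between 75 and 165 min CIT1 and MDH1 were lowest at 105 min, CIT2 and IDH1 at 150 min and ACO1 at 165 min. Each run covers 300 bases, from 400 bases upstream of the start codon up to the last 100 bases before it, which are not included, in build R64 (RefSeq), 5′ to 3′ on the strand of the gene. Capitals mark 3 motifs on either strand: GTCAC, the core of the R box bound by Rtg1 and Rtg3, CCAAT, the box bound by the Hap complex, and AGGGG, the stress element. The windows are CIT1 at chrXIV:631162-631461 (minus strand), CIT2 at chrIII:122429-122728 (minus), ACO1 at chrXII:737649-737948 (minus), IDH1 at chrXIV:559103-559402 (minus) and MDH1 at chrXI:278723-279022 (plus).
CIT1: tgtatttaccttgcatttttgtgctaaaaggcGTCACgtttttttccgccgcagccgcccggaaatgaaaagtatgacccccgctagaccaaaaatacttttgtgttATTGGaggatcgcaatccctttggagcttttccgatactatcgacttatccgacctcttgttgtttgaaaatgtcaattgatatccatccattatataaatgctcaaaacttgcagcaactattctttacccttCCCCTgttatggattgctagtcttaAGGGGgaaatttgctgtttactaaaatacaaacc
CIT2: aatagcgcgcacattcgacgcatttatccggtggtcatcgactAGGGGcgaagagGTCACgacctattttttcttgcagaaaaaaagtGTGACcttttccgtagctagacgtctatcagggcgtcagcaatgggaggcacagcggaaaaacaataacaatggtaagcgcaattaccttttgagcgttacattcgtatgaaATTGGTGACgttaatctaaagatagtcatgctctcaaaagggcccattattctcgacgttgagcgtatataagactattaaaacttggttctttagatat
ACO1: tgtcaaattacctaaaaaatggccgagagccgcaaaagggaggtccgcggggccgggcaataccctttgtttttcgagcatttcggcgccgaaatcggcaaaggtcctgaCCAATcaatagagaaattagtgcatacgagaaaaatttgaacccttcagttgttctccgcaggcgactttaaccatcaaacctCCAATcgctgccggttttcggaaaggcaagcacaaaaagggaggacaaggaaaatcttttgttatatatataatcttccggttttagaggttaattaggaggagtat
IDH1: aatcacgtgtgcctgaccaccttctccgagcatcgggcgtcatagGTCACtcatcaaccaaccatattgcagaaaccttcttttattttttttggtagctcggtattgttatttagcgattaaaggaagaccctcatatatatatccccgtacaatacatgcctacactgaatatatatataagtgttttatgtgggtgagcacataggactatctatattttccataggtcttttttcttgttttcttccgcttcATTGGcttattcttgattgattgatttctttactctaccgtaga
MDH1: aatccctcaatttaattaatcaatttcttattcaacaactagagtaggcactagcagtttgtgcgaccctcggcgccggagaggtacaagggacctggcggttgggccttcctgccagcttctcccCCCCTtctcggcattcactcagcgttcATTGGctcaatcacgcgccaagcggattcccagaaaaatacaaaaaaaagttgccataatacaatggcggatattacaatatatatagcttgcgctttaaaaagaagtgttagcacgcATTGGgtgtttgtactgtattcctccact
The CIT2 window held 3 GTCAC matches, the first 345 bases upstream of the start codon, and 1 of them shares a base with a CCAAT match. In that window 199 bases lie inside a neighbouring annotated gene. CIT1 and IDH1 held 1 GTCAC match each and the ACO1 window none. GTCAC occurred in 3 of the 5 first-step windows, 5 of the 11 later-step windows and 29.3% of the 6020 windows of all protein-coding genes. CCAAT occurred in 4 of 5, 9 of 11 and 43.9%, and AGGGG in 3 of 5, 6 of 11 and 23.5%. A match describes letters only and does not show that a factor binds.

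Values are the deposited log2 reads per 1000000 (CPM). Taking the lowest value of each library as 10 reads, the smallest number at which at least 0.9 of the low values came out whole, the 0 min library held 3437873 reads and the 13 deeper starvation libraries 603426 to 2280486. The libraries labelled 195 and 210 min held 40984 and 45009 reads, listed 1122 and 1188 genes and were left out of the tests. VTC1 was listed in all 16 libraries, at 6.67 to 7.51 log2 CPM in the 14 deeper ones and at 10.80 and 10.90 in those labelled 195 and 210 min, which goes against a complete deletion. Whether the libraries labelled 195 and 210 min are of the same strain and course as the 14 deeper ones was not tested. Of the 4 marker genes that BY4741 carries as deletions, LEU2 and MET17 were listed nowhere, HIS3 in 1 library at 1.92 log2 CPM and URA3 in 3 libraries at 2.22 to 3.97. The a-cell markers (5 of 5 listed) summed to 2030 CPM at 0 min and 2722 to 6839 in the 13 starvation libraries. Markers of alpha cells (2 of 3 listed, MF(ALPHA)2 nowhere) summed to 21.5 CPM at 0 min and 18.1 to 54.6, and those of sporulating cells (2 of 4 listed, IME1 and SPO13 nowhere) to 17.2 and 0 to 29.7. Their part in the results was not tested. Fewer cells expressing a gene and less of its RNA per cell cannot be told apart in bulk RNA. At 0 min the median gene stood 0.32 (log2) lower than on average in the 13 libraries, so each ratio to 0 min is also counted with every library centred on its median gene.

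The first question was which genes stood above the high phosphate level, and when. At 45 to 75 min 15 of the 29 genes with values in every library of that window were at least 2-fold above 0 min and none was 2-fold below. Over all genes with values 19.3% were at least 2-fold higher and 9.76% lower. With centring the 15 became 11, and the split over all genes turned from 977 higher and 493 lower to 580 and 640. At 90 to 120 min 9 genes were higher and 1 lower, against 9.49% and 1.98% of all genes, and with centring 6 and 1, with 278 and 280 among all genes in place of 489 and 102. At 150 to 180 min 17 were higher and none lower, against 25.4% and 11.8%, and with centring 14, with 801 and 773 among all genes in place of 1243 and 578. The median ratio of the gene set went from 1.03 to 0.54 and back to 1.31 (log2) over these windows. Over all genes it was 0.36, 0.25 and 0.39. The 0 min reference is a single library, so these ratios carry no test, and the SDs below are over 3 successive libraries.

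**Figure D1:**
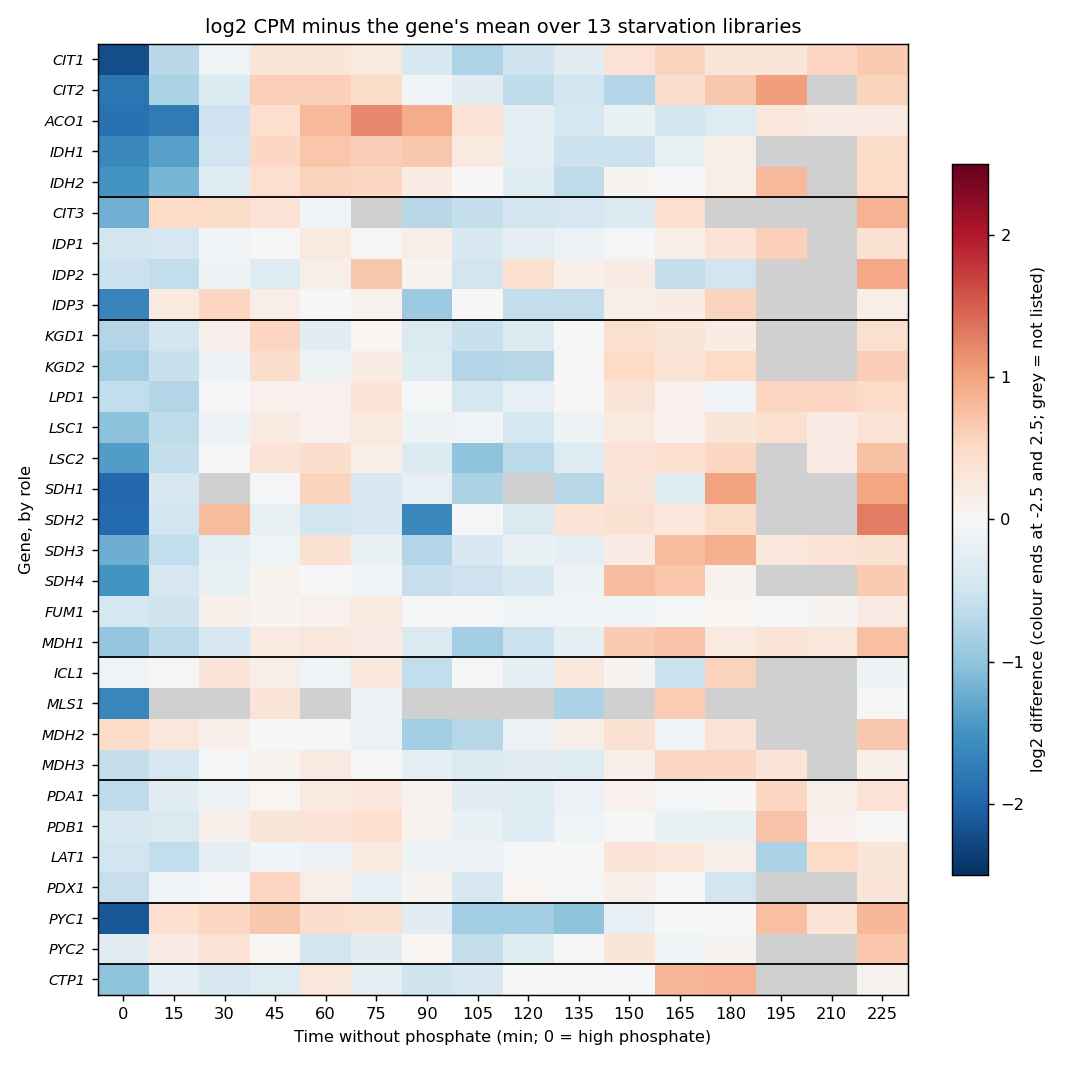
Each row is a gene and each column a library by time without phosphate (0 min is high phosphate). Colour gives the log2 CPM minus the gene's mean over the 13 deeper starvation libraries, grey marks libraries in which the gene is not listed, and lines part the roles. CIT1 was blue at 90 to 120 min and PYC1 at 105 to 135 min, ACO1 was reddest at 75 min, and most later-step genes were blue at 90 to 120 min and red from 150 min.

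All 5 first-step genes were at least 2-fold above 0 min in each of the 3 windows, with centring as well. CIT1 (YNR001C, chrXIV:629622-631061) encodes the mitochondrial citrate synthase, the entry enzyme of the cycle. Its log2 CPM was 5.91 at 0 min, then 7.43, 8.0, 8.42, 8.41 and 8.36 from 15 to 75 min, 7.74, 7.35, 7.61 and 7.82 from 90 to 135 min, 8.48, 8.67 and 8.42 from 150 to 180 min and 8.77 at 225 min. It was thus high in both outer windows with a dip between them, and all starvation values lay above the 0 min value. The ratios to 0 min were 2.49 ± 0.03, 1.66 ± 0.20 and 2.62 ± 0.13 (log2, mean ± SD, n = 3 libraries) in the 3 windows, or 5.63-, 3.16- and 6.15-fold.

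ACO1 (YLR304C, chrXII:735212-737548), the mitochondrial aconitase that turns citrate into isocitrate, took another course. Its log2 CPM was 6.88 at 0 min and 6.97 at 15 min, then 8.23, 9.17, 9.55 and 9.95 from 30 to 75 min, 9.67, 9.10, 8.51 and 8.31 from 90 to 135 min, 8.57, 8.28 and 8.41 from 150 to 180 min and 8.95 at 225 min. The single maximum was at 75 min, and the values of 150 to 180 min lay below every one of those from 45 to 105 min. The ratios were 2.68 ± 0.39, 2.22 ± 0.58 and 1.54 ± 0.14, or 6.39-, 4.65- and 2.92-fold.

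Both subunits of the NAD-dependent isocitrate dehydrogenase, the enzyme that yields oxoglutarate, resembled ACO1 in their early maximum. IDH1 (YNL037C, chrXIV:557920-559002) was at 4.95 log2 CPM at 0 min, at 5.21, 6.09, 7.07, 7.26 and 7.18 from 15 to 75 min, at 7.23, 6.81, 6.33 and 6.02 from 90 to 135 min, at 6.02, 6.37 and 6.71 from 150 to 180 min and at 7.03 at 225 min. IDH2 (YOR136W, chrXV:580250-581359) was at 5.88 at 0 min, at 6.22, 7.07, 7.79, 7.94 and 7.90 from 15 to 75 min, at 7.58, 7.37, 7.07 and 6.73 from 90 to 135 min, at 7.45, 7.38 and 7.52 from 150 to 180 min and at 7.87 at 225 min. Both were highest at 60 min among the deeper libraries and lowest after the first hour at 135 min, or for IDH1 at 135 and 150 min alike. IDH1 was 4.67-, 3.59- and 2.67-fold above 0 min in the 3 windows, and IDH2 3.99-, 2.74- and 2.97-fold.

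CIT2 (YCR005C, chrIII:120946-122328), the peroxisomal citrate synthase and the best known retrograde target, had log2 CPM of 5.05 at 0 min, 6.09, 6.54, 7.47, 7.48 and 7.34 from 15 to 75 min, 6.82, 6.62, 6.24 and 6.40 from 90 to 135 min, 6.15, 7.32 and 7.55 from 150 to 180 min and 7.45 at 225 min. The low values lasted to 150 min, 45 min past the minimum of CIT1 at 105 min. Its ratios were 2.38 ± 0.08, 1.51 ± 0.30 and 1.96 ± 0.75, and the wide last SD stems from the step between 150 and 165 min. The coding regions of CIT1 and CIT2 are 73.7% identical, yet every 50-base stretch of each is unique in the genome.

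**Figure D2:**
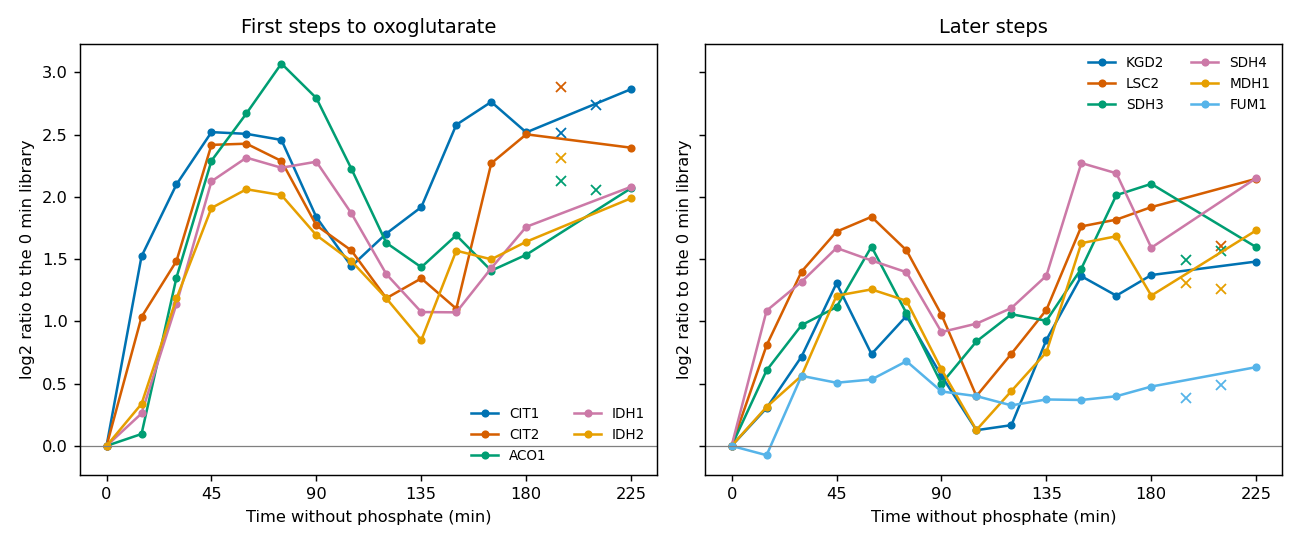
The log2 ratio to the 0 min library is plotted against time for the 5 first-step genes (left) and 6 of the later-step genes (right). Lines join the deeper libraries and crosses are the shallow libraries labelled 195 and 210 min. ACO1 peaked at 3.07 at 75 min, whereas LSC2, MDH1 and KGD2 were at 0.40, 0.13 and 0.13 at 105 min and at 1.76, 1.63 and 1.36 at 150 min.

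Later-step genes had lower ratios at 90 to 120 min than before or after. Of the 11 genes 8 were at least 2-fold above 0 min at 45 to 75 min. At 90 to 120 min 2 of 10 were, and at 150 to 180 min 9 of 11. Over all genes the shares were 19.3%, 9.49% and 25.4%. With centring the later-step counts were 4, 0 and 6. The counts of the outer windows include SDH1 and SDH2, which had 12 reads each at 0 min. With centring their log2 ratios were 1.68 and 1.26 at 45 to 75 min and 1.96 each at 150 to 180 min. KGD2 (YDR148C, chrIV:753675-755066), the succinyltransferase subunit of oxoglutarate dehydrogenase, had log2 CPM of 6.20 at 0 min, 6.51, 6.92, 7.51, 6.94 and 7.24 from 15 to 75 min, 6.76, 6.33, 6.37 and 7.05 from 90 to 135 min, 7.56, 7.41 and 7.57 from 150 to 180 min and 7.68 at 225 min. Values at 105 and 120 min were within 0.17 (log2) of the high phosphate level. KGD1, the dehydrogenase subunit of the same complex, was 1.78-, 1.25- and 2.04-fold above 0 min in the 3 windows. LPD1, the lipoamide dehydrogenase that this complex shares with pyruvate dehydrogenase, was at 7.71 at 0 min, at 7.58, 8.34, 8.42, 8.43 and 8.67 from 15 to 75 min, at 8.28, 7.87, 8.12 and 8.32 from 90 to 135 min, at 8.65, 8.43 and 8.25 from 150 to 180 min and at 8.81 at 225 min. It stayed under 2-fold above 0 min in all 3 windows.

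Succinyl-CoA ligase makes the only nucleoside triphosphate formed directly in the cycle. Its beta subunit gene LSC2 (YGR244C, chrVII:978036-979319) was at 6.19 log2 CPM at 0 min, at 6.99, 7.59, 7.91, 8.03 and 7.76 from 15 to 75 min, at 7.24, 6.59, 6.93 and 7.28 from 90 to 135 min, at 7.95, 8.0 and 8.10 from 150 to 180 min and at 8.33 at 225 min. The dip of LSC2 was centred on 105 min. The alpha subunit gene LSC1 differed less between windows, at 2.33-, 1.75- and 2.37-fold above 0 min.

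Succinate dehydrogenase passes electrons from succinate to the respiratory chain. The membrane anchor gene SDH3 (YKL141W, chrXI:179667-180263) was at 6.81 log2 CPM at 0 min, at 7.42, 7.78, 7.93, 8.41 and 7.88 from 15 to 75 min, at 7.31, 7.65, 7.87 and 7.82 from 90 to 135 min, at 8.24, 8.83 and 8.92 from 150 to 180 min and at 8.41 at 225 min. The other anchor gene, SDH4 (YDR178W, chrIV:817950-818495), was at 5.22 at 0 min, at 6.30, 6.54, 6.81, 6.71 and 6.61 from 15 to 75 min, at 6.13, 6.20, 6.33 and 6.58 from 90 to 135 min, at 7.49, 7.41 and 6.81 from 150 to 180 min and at 7.37 at 225 min. Both had their maximum between 150 and 180 min, and both were lowest after transfer at 90 min. Per kilobase the anchors stood at 189 and 68.2 CPM at 0 min, against 1.82 for SDH1, the flavoprotein, and 4.36 for SDH2, the iron-sulphur subunit. SDH1 and SDH2 rested on 12 reads each at 0 min (95% Poisson interval 6.20 to 20.96, counting error alone), and SDH1 was listed in 11 of the 13 deeper libraries.

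FUM1, fumarase, was at 8.01 to 8.36 log2 CPM from 30 to 225 min in the deeper libraries and at 7.68 at 0 min, never more than 1.5-fold above 0 min in a window mean. MDH1 (YKL085W, chrXI:279123-280127), the mitochondrial malate dehydrogenase that closes the cycle, had log2 CPM of 7.21 at 0 min, 7.52, 7.77, 8.42, 8.47 and 8.37 from 15 to 75 min, 7.82, 7.34, 7.65 and 7.96 from 90 to 135 min, 8.84, 8.89 and 8.42 from 150 to 180 min and 8.94 at 225 min. At 105 min it was within 0.13 of the high phosphate level. Its ratios of 1.21 ± 0.05, 0.39 ± 0.25 and 1.51 ± 0.26 describe the same high, low and high sequence as those of LSC2.

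The first and later steps were then set against each other within each library. The median log2 ratio to 0 min of the 5 first-step genes exceeded that of the later steps by 1.10 ± 0.08 at 45 to 75 min and by 1.10 ± 0.21 at 90 to 120 min (mean ± SD, n = 3). At 150 to 180 min the difference was 0.12 ± 0.27, with single libraries at 0.14, -0.16 and 0.39, and without the 180 min library it was -0.0063. At 15 min the lists were level, at 0.34 for the first steps and 0.40 for the later ones. The difference in the first 2 of these windows was 0.99 to 1.25 under the other scalings, summaries and membership tried. In the middle and the last window the first-step medians were 1.60 ± 0.23 and 1.61 ± 0.13, and those of the later steps 0.50 ± 0.09 and 1.48 ± 0.15. No p is given, because the genes were chosen with these data known and 0 min is 1 library.

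**Figure D3:**
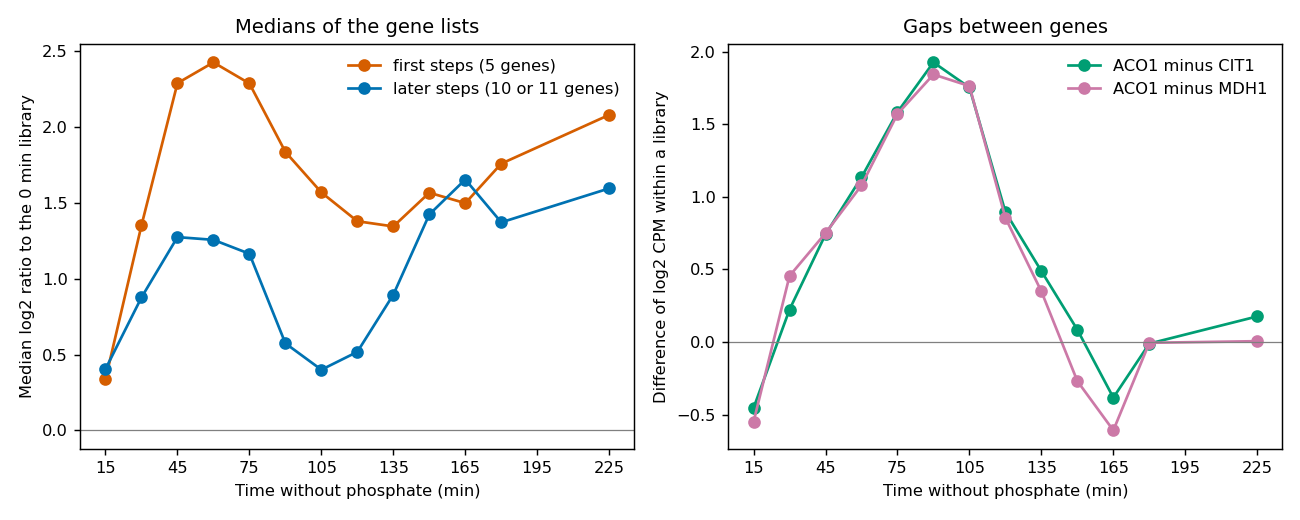
Left, the median log2 ratio to 0 min of the first-step and later-step genes in each of the 13 deeper starvation libraries. Right, the log2 CPM of ACO1 minus that of CIT1 or MDH1 in the same library. The first steps led by 1.26 at 90 min and the later steps by 0.16 at 165 min, and ACO1 stood 1.93 above CIT1 at 90 min and 0.38 below it at 165 min.

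CIT1, a first-step gene, had its low at 105 min, as MDH1, LSC2 and KGD2 had. ACO1 minus CIT1 on the log2 CPM scale was 0.97 at 0 min, -0.45 at 15 min, 1.93 at 90 min, -0.38 at 165 min and 0.18 at 225 min. The 3 gaps were 0.90 to 1.93 at 90 to 120 min and -0.38 to 0.08 at 150 to 180 min. These genes were paired with their courses known, and how many other pairs of genes part as far was not counted. ACO1 minus MDH1 followed the same sequence, with 1.49 ± 0.55 and -0.29 ± 0.30 in these windows. A gap within a library is not altered by a constant shift of that library, as in centring, though quantile normalization can alter it. With 3 against 3 libraries an exact permutation test could not go below p = 0.10, and none was run.

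Changes within starvation were tested with limma on all genes, with the 0 min library left out. Neighbouring libraries are not replicates, so the p-values measure the scatter of successive libraries around the fitted model. A steady slope over 15 to 225 min was called for none of the 30 genes tested, higher or lower, against 3.19% and 3.38% of all genes (164 higher and 174 lower, or 116 and 202 with centring). At an unadjusted p under 0.05 there were 7. A natural spline with 4 degrees of freedom, which allows a rise and fall, called 15 of 30 (adjusted p under 0.05, fitted curve spanning at least 2-fold), against 28.1% of all genes. Among these 15 were 5 of 5 first-step genes, 6 of 11 later-step genes (KGD2, LPD1, LSC2, SDH3, SDH4 and MDH1), CIT3, MDH2, PYC1 and CTP1, and none of the 4 pyruvate dehydrogenase genes. Some of these calls rest on single libraries. That of LPD1 was lost with centring and without the 15, 45, 60, 75 or 225 min library (adjusted p up to 0.226), that of CIT3 without 90, 105, 165 or 225 min (up to 0.0886), that of MDH2 with centring and without 90, 105 or 225 min (up to 0.0682), and that of IDH2 without 15 min (fitted range 0.97). The widest fitted ranges were those of ACO1 (2.84, adjusted p = 8.63e-07) and IDH1 (2.16, adjusted p = 4.44e-05), which the fit placed highest at 75 and 60 min. CIT1 (1.28, adjusted p = 7.73e-05) and LSC2 (1.49, adjusted p = 1.56e-05) had their fitted maxima at 225 min. A stiffer spline of 3 degrees of freedom called only ACO1, IDH1 and PYC1, and 140 genes of all in place of 1447.

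From 45 to 75 min to 90 to 120 min only PYC1 was called lower (-1.17 ± 0.18, SE, adjusted p = 0.00189). None of the 30 genes was called higher. Of all genes 5.05% were called higher and 3.02% lower, so 1 in 30 is near the background. All 30 estimates were below 0, with a median of -0.46, against 57.95% below 0 and a median of -0.08 over all genes. With quantile normalization 26 of 28 were below 0. Estimates for CIT1 (-0.83 ± 0.18, adjusted p = 0.00672), LSC2 (-0.98 ± 0.20, adjusted p = 0.00562), MDH1 (-0.81 ± 0.18, adjusted p = 0.00757) and KGD2 (-0.74 ± 0.20, adjusted p = 0.02) passed on p but not on the 2-fold minimum. For ACO1 the estimate was -0.46 ± 0.31 (adjusted p = 0.364).

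From 90 to 120 min to 150 to 180 min 5 genes were called higher and none lower, against 7.28% and 8.81% of all genes. With all libraries, these 5 belong to the later steps, which number 11: MDH1 (1.11 ± 0.18, adjusted p = 0.000268), LSC2 (1.10 ± 0.20, adjusted p = 0.000697), SDH3 (1.05 ± 0.22, adjusted p = 0.00198), KGD2 (1.03 ± 0.20, adjusted p = 0.00115) and SDH4 (1.02 ± 0.20, adjusted p = 0.00126). All 5 lie close to the 2-fold minimum. MDH1, LSC2 and SDH3 alone passed with centring or quantile normalization, and MDH1, LSC2 and KGD2 alone without the 165 min library. Without the 105 min library MDH1, LSC2 and KGD2 were at 0.98, 0.94 and 0.95, under the minimum, and without the 90 min library SDH3 and SDH4 were at 0.90 and 0.97. The median estimate was 1.02 for the later steps, 0.12 for the first steps and 0.11 for all genes. CIT1, a first-step gene, was at 0.96 ± 0.18 (adjusted p = 0.000857), under the 2-fold minimum, and it was called without the 90 min (1.05, adjusted p = 0.00168) or the 180 min library (1.01, adjusted p = 0.00209). IDH2 was at 0.12 ± 0.21, IDH1 at -0.42 ± 0.26 and ACO1 at -0.67 ± 0.31 (adjusted p = 0.119). FUM1 was at 0.03 ± 0.17 among the later steps.

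**Figure D4:**
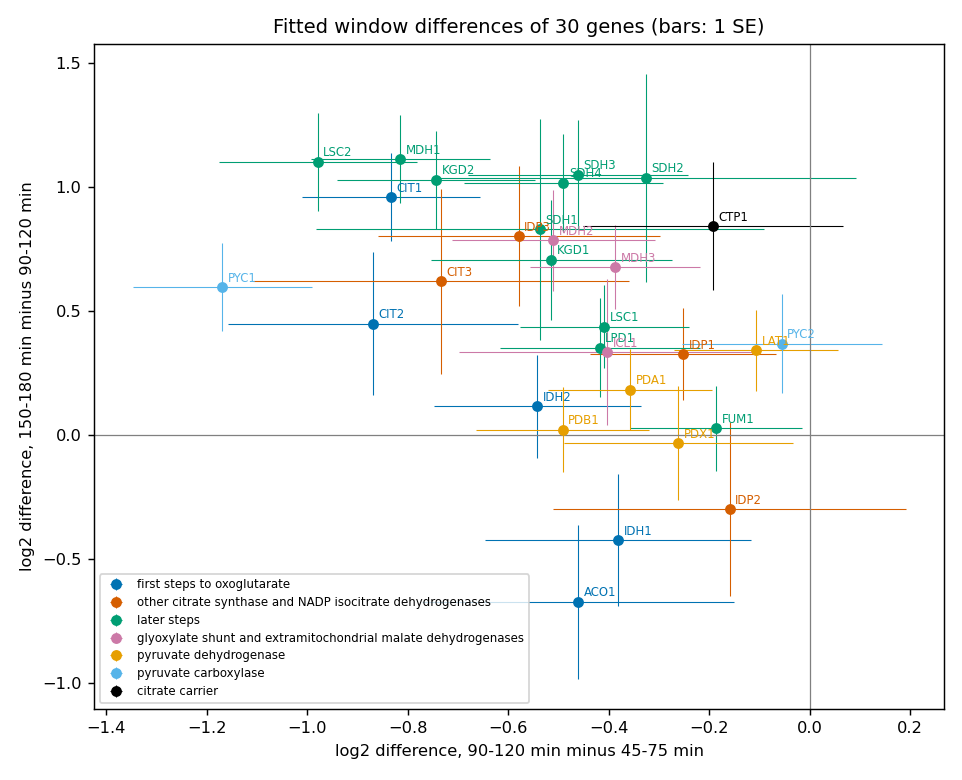
Fitted log2 difference between 90 to 120 and 45 to 75 min (horizontal) and between 150 to 180 and 90 to 120 min (vertical) for the 30 genes tested, coloured by role, with bars of 1 SE. All points lie left of 0 on the horizontal axis; LSC2, MDH1 and KGD2 are at upper left, and ACO1 and IDH1 lie below 0 on the vertical axis.

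The 2 outer windows were also contrasted directly, a comparison added after the data were seen. None of the 30 genes was called higher or lower between 45 to 75 and 150 to 180 min, against 0.805% and 0.373% of all genes, and 7 had an unadjusted p under 0.05. The lowest estimate was that of ACO1, -1.13 ± 0.31 (adjusted p = 0.0736), followed by IDH1, -0.80 ± 0.26 (adjusted p = 0.12). As in the other window contrasts, the spread was estimated from the 15 and 30 min libraries too. Leaving out either of them kept the ACO1 estimate at -1.13 but moved ACO1 across the threshold of a call. The absence of a call thus depended on libraries outside the contrast. ACO1 was also called lower without the 150 min library (-1.21, adjusted p = 0.0422). In 15 of the 18 other settings it was not called. Of the later steps 9 of 11 estimates were above 0 and of the first steps 1 of 5, that of CIT1 (0.13 ± 0.18). Over all genes 50.84% of estimates were above 0, and a difference between these lists was not tested.

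Pyruvate enters the cycle as oxaloacetate through pyruvate carboxylase or as acetyl-CoA through pyruvate dehydrogenase. The carboxylase gene PYC1 (YGL062W, chrVII:385196-388732) was at 6.59 log2 CPM at 0 min and at 9.10 by 15 min. It was at 9.22, 9.39, 9.15 and 9.10 from 30 to 75 min, at 8.43, 7.86, 7.84 and 7.71 from 90 to 135 min, at 8.51, 8.70 and 8.71 from 150 to 180 min and at 9.55 at 225 min. PYC1 thus stood 5.95-fold above 0 min over 15 and 30 min, when ACO1, IDH1 and IDH2 were at 1.65-, 1.62- and 1.69-fold. With centring the log2 ratios over 15 and 30 min were 2.30 for PYC1, 1.54 for CIT1 and 0.98 for CIT2. On the same scale ACO1, IDH1 and IDH2 were at 0.45, 0.42 and 0.49. In these libraries 8 of 29 genes of the set were at least 2-fold above 0 min, and 618 of 4657 over all genes. With centring these counts were 5 and 394. The second carboxylase gene, PYC2, was between 6.85 and 8.14 log2 CPM in the 13 libraries and at 7.20 at 0 min, and no test called it. The coding regions of PYC1 and PYC2 are 85.5% identical and 91.5% and 91.6% of their 50-base stretches are unique, so shared reads could blur the pair to a small extent that was not tested.

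PDA1, PDB1, LAT1 and PDX1 encode the alpha and beta subunits of pyruvate dehydrogenase, its acetyltransferase and its dehydrogenase-binding protein. None of the 4 was 2-fold above 0 min in any window (ratios of 0.26 to 0.83), and no test called one. PDA1 had the highest level of the 31 genes per length at 0 min, 399 CPM per kb, and was at 9.30 to 9.98 log2 CPM in the 13 libraries. LAT1 had the smallest adjusted p of the set in the slope (0.68 ± 0.21 from 15 to 225 min, adjusted p = 0.0612).

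No call was made for the enzymes of the glyoxylate shunt proper. ICL1 (YER065C, chrV:285241-286914), isocitrate lyase, was at 4.77 log2 CPM at 0 min, at 4.88, 5.19, 5.0, 4.75 and 5.14 from 15 to 75 min, at 4.24, 4.82, 4.62 and 5.14 from 90 to 135 min, at 4.93, 4.32 and 5.43 from 150 to 180 min and at 4.73 at 225 min. Starvation values lay on both sides of the 0 min value, and no test called the gene. MLS1 (YNL117W), malate synthase, had 10 reads at 0 min (95% Poisson interval 4.80 to 18.39) and a log2 CPM of 1.54, and was listed at 45, 75, 135, 165 and 225 min at 3.49, 3.02, 2.37, 3.81 and 3.18. Being listed in 5 of the 13 deeper libraries it was not tested.

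MDH2 (YOL126C, chrXV:81787-82920), the cytosolic malate dehydrogenase of gluconeogenesis, was the only gene 2-fold below 0 min in a window. Its log2 CPM was 7.65 at 0 min, 7.46, 7.30, 7.16, 7.16 and 7.03 from 15 to 75 min, 6.33, 6.45, 7.03 and 7.33 from 90 to 135 min, 7.56, 7.09 and 7.52 from 150 to 180 min and 7.84 at 225 min. It lay below 0 min in the 12 libraries from 15 to 180 min and above it at 225 min. The ratio at 90 to 120 min was -1.04 ± 0.37, and without the 90 or the 105 min library no gene was 2-fold lower. MDH3, the peroxisomal enzyme, was 1.63-, 1.25- and 2.0-fold above 0 min, and its late estimate of 0.68 ± 0.17 (adjusted p = 0.00687) was under the 2-fold minimum.

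CIT3, a second mitochondrial citrate synthase, was near the floor of detection, with 18 reads at 0 min (95% Poisson interval 10.67 to 28.45). It was at 2.39 log2 CPM at 0 min, at 4.09, 4.05, 3.95 and 3.52 from 15 to 60 min, at 2.90, 2.98, 3.13 and 3.16 from 90 to 135 min, at 3.25 and 4.0 at 150 and 165 min and at 4.46 at 225 min. At 75 and 180 min it was not listed. Of the NADP isocitrate dehydrogenases, which make NADPH rather than NADH, the peroxisomal IDP3 was 3.34-, 2.24- and 3.90-fold above 0 min but rested on 25 reads there (95% Poisson interval 16.18 to 36.90). The mitochondrial IDP1 was 1.46-, 1.23- and 1.54-fold and the cytosolic IDP2 1.62-, 1.45- and 1.18-fold, and no test called these 3 genes. CTP1, the carrier that exchanges citrate across the inner mitochondrial membrane, was at 5.08 at 0 min, at 5.87, 5.68, 5.75, 6.35 and 5.86 from 15 to 75 min, at 5.59, 5.70, 6.09 and 6.10 from 90 to 135 min, at 6.05, 6.91 and 6.95 from 150 to 180 min and at 6.16 at 225 min. Its highest values were at 165 and 180 min, and the spline called it (fitted range 1.03, adjusted p = 0.0244). That call was lost with centring or quantile normalization (0.99 and 0.98, under the 2-fold minimum) and without the 90, 105, 165 or 180 min library (adjusted p up to 0.151).

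**Figure D5:**
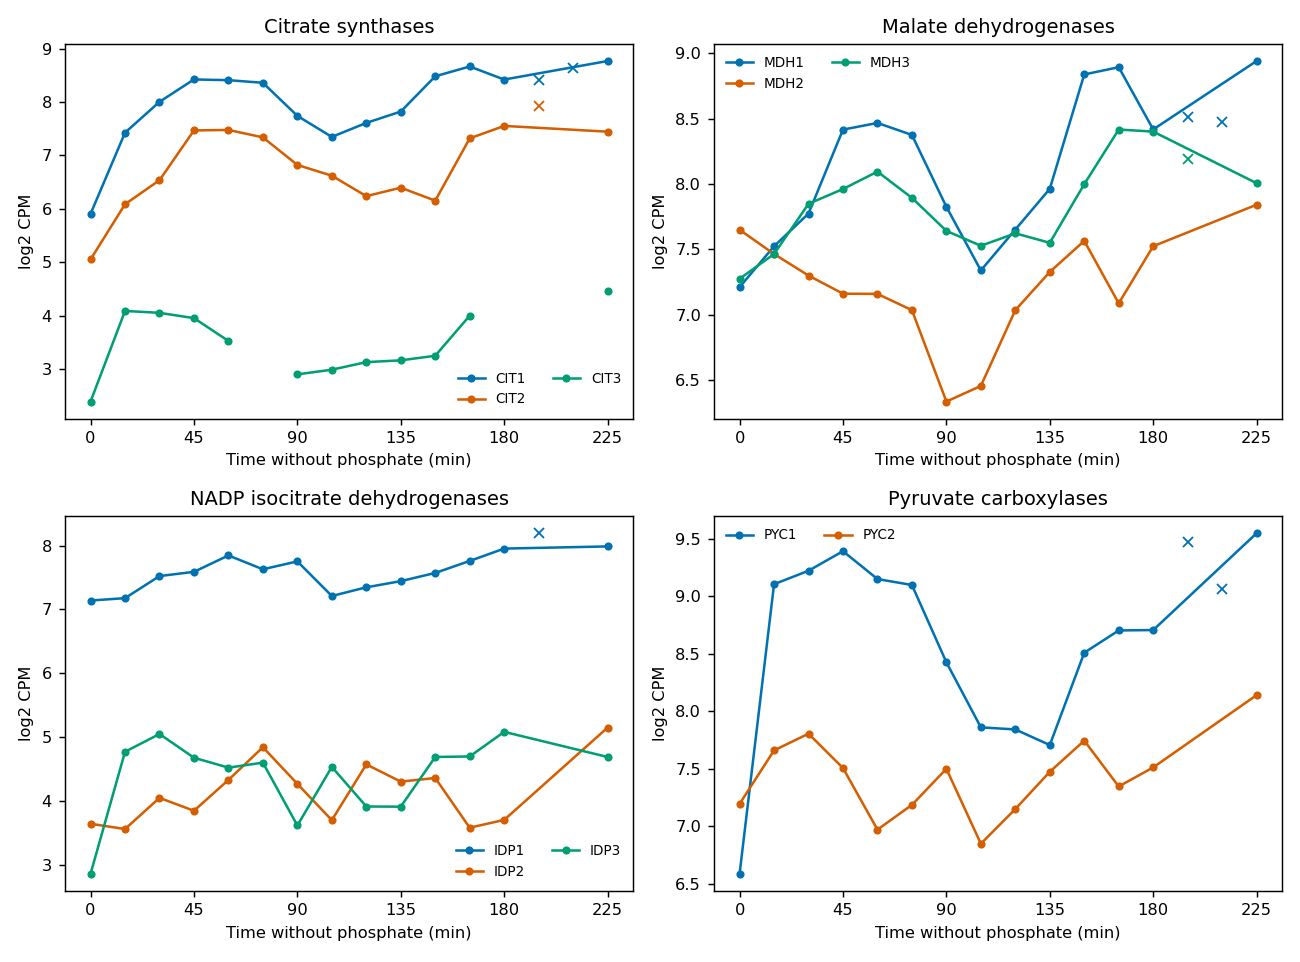
Log2 CPM against time for genes of the same reaction: citrate synthases, malate dehydrogenases, NADP isocitrate dehydrogenases and pyruvate carboxylases. Lines join neighbouring deeper libraries, gaps mark libraries in which a gene is not listed and crosses are the shallow libraries. PYC1 went from 6.59 to 9.10 between 0 and 15 min while PYC2 went from 7.20 to 7.66, and MDH2 reached 6.33 at 90 min, 15 min before the lowest value of MDH1 after transfer, 7.34.

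Genes around the cycle were read from the same fits, in lists chosen with earlier results known. DLD3, the other classic retrograde target, was at 6.08 log2 CPM at 0 min, at 7.81, 7.27, 7.67, 7.94 and 8.15 from 15 to 75 min, at 7.70, 7.32, 6.64 and 6.42 from 90 to 135 min, at 6.13, 6.28 and 7.11 from 150 to 180 min and at 6.90 at 225 min. Like ACO1 it was highest at 75 min and low at 135 to 165 min, and it was lower at 150 to 180 than at 45 to 75 min (-1.41 ± 0.28, adjusted p = 0.0222). No other of the 8 retrograde genes tested was called in the slope or in a contrast of windows, and RTG1 was listed in no library. Without the 60, 75 or 165 min library DLD3 missed the threshold (adjusted p up to 0.164).

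The counts of these lists in the late contrast stand against 7.28% of all genes higher and 8.81% lower, and 1 called gene of 7 or of 9 is near that background. In the late contrast 2 of 4 Hap complex genes were called higher. They were HAP5 (1.22 ± 0.26, adjusted p = 0.00253) and HAP4 (1.12 ± 0.37, adjusted p = 0.0344). HAP4, the activating subunit, was at 2.98, 3.64 and 3.67 log2 CPM at 90, 105 and 120 min and at 4.93 and 4.17 at 150 and 165 min, and it was not listed at 180 min. The floor of the 180 min library was 13.05 CPM (3.71 on the log2 scale), and a gene not listed lay under it. The late estimate of HAP4 thus rests on 150 and 165 min and leaves out a library in which the gene was low. Without the 90 or the 105 min library HAP4 was not called (adjusted p = 0.127 and 0.0597). Of 7 genes of succinate dehydrogenase assembly and its homologues 3 were called higher. They include the assembly factors SDH6 (1.82 ± 0.28, adjusted p = 0.000197) and SDH5 (1.12 ± 0.23, adjusted p = 0.00199). Also called was SHH4, a homologue of SDH4 (1.58 ± 0.24, adjusted p = 0.000191). The table lists SDH6, SDH5 and SHH4 as YDR379C-A, EMI5 and YLR164W. SHH4 was also called in the slope (1.76 ± 0.49 from 15 to 225 min, adjusted p = 0.0385), a call lost on leaving out any of several libraries (adjusted p up to 0.184).

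Among 8 tested genes of peroxisomal beta-oxidation 3 were called higher late. They include the fatty acyl transporter subunit PXA2 (1.76 ± 0.27, adjusted p = 0.000216) and the multifunctional enzyme FOX2 (1.44 ± 0.39, adjusted p = 0.0102). Also called was the carnitine acetyltransferase CAT2 (1.24 ± 0.40, adjusted p = 0.0277). CAT2 had fallen in the middle contrast (-1.37 ± 0.40, adjusted p = 0.0294). Each CAT2 call was lost on leaving out any of 5 libraries, with adjusted p up to 0.149 in the middle and 0.139 in the late contrast, and that of FOX2 without 165 or 180 min (up to 0.0568). Of 9 mitochondrial carriers only MPC3 (FMP43 in the table) was called higher late (1.5 ± 0.24, adjusted p = 0.000233). It encodes a mitochondrial pyruvate carrier subunit. The pyruvate dehydrogenase kinase genes PKP2 and PKP1 were called in the late contrast (1.17 ± 0.30, adjusted p = 0.00869) and in the slope (1.29 ± 0.38, adjusted p = 0.0496), as 1 of 7 genes tested of their list each time. The PKP1 call was lost in most fits that left out a library (adjusted p up to 0.200), and that of PKP2 without 105 min (0.0583). GDH3, a glutamate dehydrogenase, rose late (1.4 ± 0.28, adjusted p = 0.00155). None of the 5 tested genes of gluconeogenesis and acetate use, PCK1 and ACS1 among them, was called in either contrast. The same held for the 5 tested decarboxylase and alcohol dehydrogenase genes. Late estimates of the gluconeogenesis and acetate genes were 0.62 to 0.98, 4 of them at an unadjusted p under 0.05. Those of the decarboxylase and alcohol dehydrogenase genes were -0.04 to 0.37, with 0 at that threshold. Over all genes 2005 of 5094 passed it.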

How the data were processed

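RNA came from a 96-well kit and its cDNA was sequenced on an Illumina instrument, per the labels' protocols. Bowtie and build R64 are named in the submitters' processing notes; versions, the counting program, its use of strand and its handling of reads with several matches were not given in the sources used here. The deposited values are log2 CPM, since each library adds up to 1000000 on the linear scale. The design text speaks of normalizing to 0 min, but the deposited values are not so normalized, and ratios were formed here by subtracting log2 values. Values under the floor of a library are missing, and nothing was added to them. Of 6701 entries, unnamed and duplicated ones were dropped, leaving 6648 genes. With 10 reads as the floor, 93.3% to 98.0% of the lowest 800 values per library were whole reads (within 0.02) in the 14 deeper libraries. Any multiple of 10 would give whole reads too, so read numbers are the least the values allow. Intervals cover counting error only.

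The members and gene lists were chosen with earlier results of these data known. limma 3.58.1 in R 4.3.3 fitted log2 CPM (lmFit, eBayes with a mean-variance trend) over all genes with at least 10 of 13 values (5145 genes), or 8 of 11 with 2 per window (5094 genes). A call needed a Benjamini-Hochberg adjusted p under 0.05 over all genes and a change of at least 1 (log2), two-sided. Changes of the slope are from 15 to 225 min. A ratio to 0 min counted from a mean of at least 1 in size with the same sign in the 3 libraries. The fits were run on simulated data of 4500 genes, 200 of them changed by 2 (log2), and recovered 97.5% to 100% of these. The simulated noise was independent between libraries and no value was missing. The real libraries had a lag-1 autocorrelation of 0.36 around the line and missing values, so the check does not cover these or changes near the minimum. Values in every deeper library were given for genes called in a planned test and for the citrate synthases, ACO1, IDH1, IDH2, ICL1 and MLS1, and at most 3 called genes of each surrounding list, with DLD3 and VTC1. Sequences, coordinates and the uniqueness of 50-base stretches came from the R64 genome; no member overlaps another annotated gene. Alternatives were other scalings, filters, thresholds, variance and time models and leaving out each library. 1 result on a gene outside the 31 is not reported here.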

Additional observations from a re-analysis of the deposited data

Results flagged for a closer look

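The libraries labelled 195 and 210 min, used in no test, list 11 of the 31 genes in common, and 7 of these were at least 2-fold above 0 min in both. The lower of the 2 log2 ratios was 2.51 for CIT1, 2.06 for ACO1, 1.15 for LPD1, 1.21 for LSC1, 1.49 for SDH3, 1.26 for MDH1 and 2.47 for PYC1. Values of a library sum to 1000000 over the genes it lists, and those listed at 195 and 210 min hold 71.1% and 72.1% of the 225 min library. Had these 2 libraries the makeup of 225 min, their values would stand 0.49 and 0.47 (log2) too high. An excess of that size would bring LPD1, LSC1 and MDH1 under 2-fold. Genes under their floor of 244 and 222 CPM cannot appear, so the genes listed are selected for high values there. The share of all listed genes at least 2-fold above 0 min was not counted. VTC1, labelled as deleted, was at 10.80 and 10.90 log2 CPM in these 2 libraries, against 7.51 at most in the deeper ones.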

How the results depend on the processing

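The number of slope calls among the 30 genes, 0 higher, became 2 with quantile normalization, 6 with the 0 min library added and 0 to 1 when single libraries were left out (1 without 60 min), and stayed at 0 with lag-1 autocorrelation removed. Spline calls, 15, were 12 to 16 under other scalings, filters, libraries and leave-one-out fits, 21 with no minimum change, 11 at an adjusted p under 0.01 and 3 with 3 degrees of freedom. The 1 gene lower at 90 to 120 min became 5 with no minimum change and 1 to 2 on leaving out libraries (2 without 75 or 90 min). The 5 genes higher at 150 to 180 min became 3 with centring, 3 with quantile normalization, 12 with no minimum change and 3 to 5 on leaving out libraries (3 without 165 min). Genes lower at 150 to 180 than at 45 to 75 min were 0 to 1 on leaving out libraries (1 without 15, 30 or 150 min). Ratios to 0 min at 45 to 75 min gave 15 genes higher, 8 with quantile normalization and 11 with centring; at 90 to 120 min 9, and 6 with either scaling; the gene lower there was 0 to 1 on leaving out libraries (0 without 90 or 105 min). The first minus later steps at 150 to 180 min ranged from -0.0063 to 0.27 on leaving out libraries. The cause of these differences was not tested, except that fewer libraries or a smaller minimum change enter by construction. No paired analysis was possible because each time has 1 library.

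Depth limits the least abundant genes: MLS1, SDH1, SDH2 and CIT3 had 10 to 18 reads at 0 min, and the shallow libraries list 11 of the 31 genes.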
